A study of Homo sapiens with 24 samples.

Results

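The 35 genes of blood coagulation and fibrinolysis described here were listed by symbol, as clotting factors, their inhibitors and the genes of fibrin breakdown, and all 35 had a row among the 26475 gene symbols counted in HepG2 cells, a human hepatocellular carcinoma cell line. RNA was sequenced in 24 libraries in 8 groups of 3. One group received the solvent DMSO, and the others received 50 nM ABBV-075, 50 nM or 500 nM ABBV-744, interferon gamma (IFNγ), or IFNγ together with each of these inhibitor treatments. ABBV-075 inhibits both bromodomains of the bromodomain and extra-terminal (BET) proteins, and ABBV-744 prefers the second of them. The study's methods give 12 h for ABBV-075 and name DMSO among treatments of 24 h. If the DMSO libraries here are those, inhibitor and time cannot be told apart where ABBV-075 is compared with DMSO. The time of the other treatments and the dose of IFNγ are not given in the sources used here. All libraries come from 1 cell line. The study's methods call the DMSO and ABBV-075 samples independent and their triplicates experimental, without naming separate cultures, and for the other groups the sources used here say nothing of this, so that p-values measure the spread between these libraries.

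Hepatocytes make most of the proteins of the clotting cascade. In this cascade, tissue factor and factor VIIa start a series of proteases that ends with thrombin, which turns fibrinogen into fibrin. Several of the proteases need a carboxylation that depends on vitamin K. Antithrombin, heparin cofactor II, tissue factor pathway inhibitor and the protein C pathway hold the cascade back, and plasmin dissolves the clot. BET proteins read acetylated histones and are known to sustain the transcription of genes near strong enhancers.

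Between 2978982 and 4304103 reads per library were counted on genes, on the strand of the gene. The 6 hepatocyte markers were abundant in all 24 libraries, and their sum moved with the groups. In CPM (the usual depth-scaled counts, with TMM factors) it was 14742 to 16410 in DMSO, 17132 to 22563 with ABBV-075, and 13250 to 16495 with ABBV-744. It was 13932 to 15887 CPM with IFNγ and 17029 to 23232 CPM in the 3 inhibitor groups with IFNγ. The endothelial markers summed to at most 2.15 CPM, and CDH5, KDR and TEK had 3 counts or fewer in every library. Of the 6 leukocyte and platelet markers, PTPRC, ITGA2B and PF4 were at that floor in every library, and CD68, LYZ and CD14 were not. CD14 was at the floor in the group with ABBV-075 alone. The 6 summed to 1105 to 1883 CPM over the 24 libraries. LYZ, a lysozyme gene, had 1704 ± 65.7 CPM in DMSO and 1188 ± 41.9 CPM with ABBV-075. Of the 5 stellate cell and fibroblast markers, COL1A1, COL1A2 and DCN were at the floor, and PDGFRB and ACTA2 were not. The 5 summed to 21.5 to 23.6 CPM in DMSO, 12.8 to 17.4 CPM with ABBV-075, 21.8 to 29.0 CPM with ABBV-744, 23.3 to 27.2 CPM with IFNγ and 9.64 to 16.6 CPM in the inhibitor groups with IFNγ. The part of these markers in the results was not tested. HEXIM1, which BET inhibitors are known to raise, had 53.8 ± 3.25 CPM in DMSO (SD, n = 3), 145 ± 7.62 CPM with ABBV-075, and 64.8 ± 4.02 and 89.4 ± 4.79 CPM with 50 nM and 500 nM ABBV-744. With IFNγ it had 47.0 ± 2.32 CPM, and 135 ± 5.83, 49.5 ± 9.37 and 71.5 ± 2.01 CPM with the same inhibitor treatments added, so that its level with IFNγ and 50 nM ABBV-744 was not called different from IFNγ alone. IRF1, an IFNγ target, had 12 ± 1.40 CPM in DMSO and 228 ± 21.3 CPM with IFNγ. Low-GC and high-GC genes moved apart between libraries, as described with the results that it touches.

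Of the 35 genes, 23 had enough counts to be tested in each of the 7 comparisons of a treatment with its own control, and F12 was tested in some of them. The other 11 were not tested there: F9, PROZ, F8, KLKB1, KNG1, HRG, F13B, PLG, PLAT, PLAU and PLAUR. F9, KLKB1, HRG, F13B and PLG had 3 counts or fewer in every one of the 24 libraries, which covers counting error only, and F9, the gene of factor IX, had 0 counts in all of them. A count of 3 corresponded to between 0.697 and 1.01 CPM in these libraries. Levels of different genes were compared as RPKM, the CPM divided by the joint length of all annotated exons of the gene in kilobases. The order between genes thus depends on how each is annotated. In DMSO the order was led by SERPINA1 (1094 RPKM), A2M (449 RPKM), FGG (370 RPKM), SERPIND1 (134 RPKM) and FGA (119 RPKM). These encode alpha-1-antitrypsin, alpha-2-macroglobulin, the fibrinogen gamma chain, heparin cofactor II and the fibrinogen alpha chain, and the 3 libraries of each lay apart from those of the next gene in the order. F2 (48.0 RPKM) and PROC (42.4 RPKM), which encode prothrombin and protein C, overlapped. FGB (10.6 RPKM), FGL1 (10.5 RPKM), PROS1 (10.3 RPKM) and GGCX (9.69 RPKM) overlapped with their neighbours in the order as well. The fibrinogen beta chain gene FGB was thus far below its partners FGA and FGG, which are joined with it in the same protein.

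**Figure D1:**
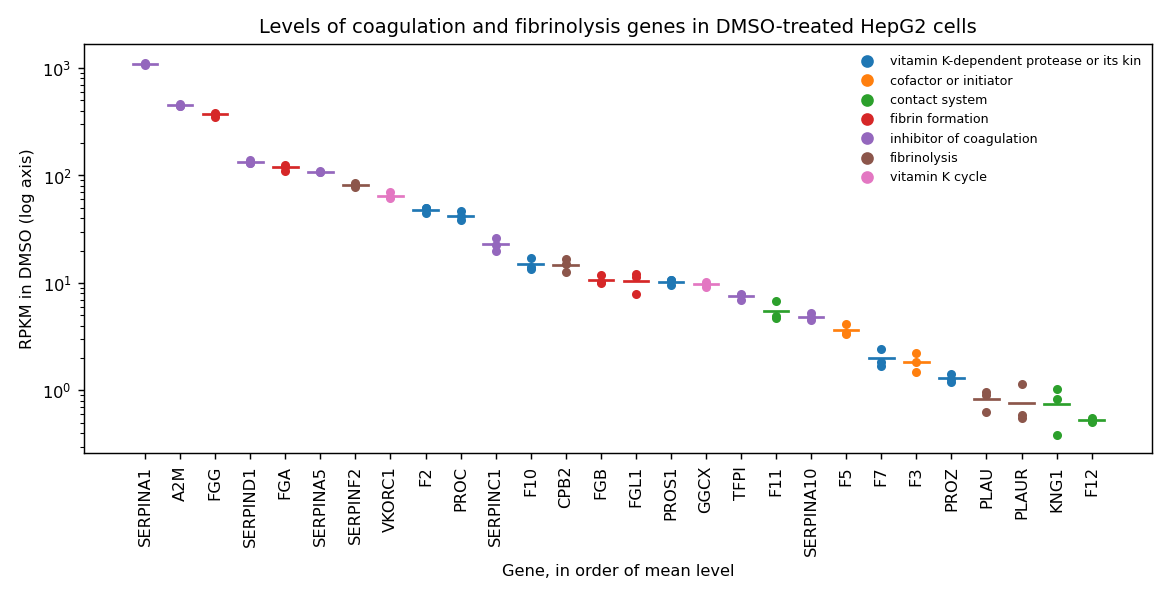
Levels in RPKM on a log axis in the 3 DMSO libraries (points) with their mean (line), for the 28 genes with the highest means, coloured by role. SERPINA1 (1094 RPKM) leads, the fibrinogen genes FGG (370 RPKM) and FGB (10.6 RPKM) lie far apart, and F12 (0.527 RPKM) is the lowest of those drawn.

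The promoters of 5 genes are shown because the 3 fibrinogen genes, neighbours on chromosome 4, responded differently, and because CPB2 and SERPIND1 are among the genes that fell with both inhibitors. Each stretch holds the 250 bases before the gene's start in RefSeq (GRCh38.p14), 5′ to 3′ on the strand of the gene. FGA lies on the minus strand (chr4:154590743-154590992), FGB on the plus strand (chr4:154562730-154562979) and FGG on the minus strand (chr4:154612657-154612906). SERPIND1 lies on the plus strand (chr22:20773863-20774112) and CPB2 on the minus strand (chr13:46105034-46105283). Capitals mark matches to the interferon gamma-activated sequence (GAS) TTCNNNGAA, to the C/EBP motif TTGCNNAA and to the HNF4 motif CAAAGTCC on either strand, and to the TATA box TATAAA on the strand of the gene.
FGA: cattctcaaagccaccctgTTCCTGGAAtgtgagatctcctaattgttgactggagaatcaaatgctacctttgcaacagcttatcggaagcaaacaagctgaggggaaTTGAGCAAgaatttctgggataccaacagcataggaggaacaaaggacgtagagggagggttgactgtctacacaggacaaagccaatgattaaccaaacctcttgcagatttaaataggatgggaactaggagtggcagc
FGB: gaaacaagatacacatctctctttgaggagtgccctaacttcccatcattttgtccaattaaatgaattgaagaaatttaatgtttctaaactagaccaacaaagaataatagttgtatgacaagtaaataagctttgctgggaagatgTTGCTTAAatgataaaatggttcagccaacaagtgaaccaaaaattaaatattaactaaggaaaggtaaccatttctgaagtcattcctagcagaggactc
FGG: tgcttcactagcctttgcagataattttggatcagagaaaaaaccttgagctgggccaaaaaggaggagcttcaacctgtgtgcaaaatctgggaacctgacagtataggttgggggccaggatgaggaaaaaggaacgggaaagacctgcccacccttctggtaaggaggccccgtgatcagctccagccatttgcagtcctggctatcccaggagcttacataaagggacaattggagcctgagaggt
SERPIND1: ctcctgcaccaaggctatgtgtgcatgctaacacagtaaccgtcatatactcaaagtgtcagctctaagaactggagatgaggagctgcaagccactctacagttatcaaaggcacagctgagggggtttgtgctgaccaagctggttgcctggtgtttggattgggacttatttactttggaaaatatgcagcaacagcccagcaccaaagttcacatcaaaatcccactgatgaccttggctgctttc
CPB2: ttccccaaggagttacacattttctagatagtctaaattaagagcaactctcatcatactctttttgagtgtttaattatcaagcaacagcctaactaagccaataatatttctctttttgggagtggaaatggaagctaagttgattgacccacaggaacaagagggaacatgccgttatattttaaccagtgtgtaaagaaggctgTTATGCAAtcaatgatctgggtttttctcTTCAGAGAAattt
FGA and CPB2 held a match to the GAS and C/EBP motifs, and FGB to the C/EBP motif. FGG and SERPIND1 held none of the 4 motifs in these 250 bases. Over the 30 genes with an entry in the promoter table, 7 held a GAS match and 9 a C/EBP match before at least 1 start. Among all 35116 entries the shares were 6.57% and 9.05%. HNF4 matches were found in 2 of the 30 genes (1.02% of all entries) and TATA boxes in 2 (6.8% of all entries). The counts are per gene over all its starts, and the shares are per entry. A gene with several starts has more chances of a match, so that counts and shares cannot be compared. A match is a description of the letters and not of a bound site.

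With 50 nM ABBV-075, 13 of the 24 tested genes fell and 0 rose, at an adjusted p of at most 0.05 (quasi-likelihood test of edgeR, adjusted over all genes tested by the Benjamini-Hochberg method). Over all 11244 genes tested, 39.3% were called, 19.6% lower and 19.8% higher. At an unadjusted p under 0.05, 1 of the 24 genes was higher, and DESeq2 also called 0 higher. The median log2 fold change of the 24 genes was -0.52, beside 0.03 over all genes. The genes that fell encode 3 of the 5 tested vitamin K-dependent proteins (F2, F7, PROC) and both tested contact factors (F11, F12). They also encode 5 of the 7 inhibitors (SERPINC1, SERPIND1, SERPINA5, SERPINA10, A2M). FGA fell as 1 of the 4 tested genes grouped with fibrinogen, which are FGA, FGB, FGG and the fibrinogen-like FGL1. Both tested genes of fibrinolysis (SERPINF2, CPB2) fell as well. CPB2, F7 and F12 also passed an absolute log2 fold change of 1.5, the size used in the study, as did 4.28% of all genes. In these bulk libraries, fewer cells that express a gene and less RNA of it per cell cannot be told apart. If the DMSO treatment lasted 24 h and that of ABBV-075 12 h, inhibitor and time cannot be told apart either.

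ABBV-744 alone moved fewer of these genes, and in both directions. With 50 nM, 4 of 24 fell (F11, TFPI, SERPIND1, CPB2) and 4 rose (F2, F10, SERPINA1, SERPINF2), where 18.9% of all genes were called, 10.1% lower and 8.81% higher. With 500 nM, 3 fell (PROS1, SERPIND1, CPB2) and 3 rose (F10, SERPINA1, SERPINF2), where 15.3% of all genes were called, 7.8% lower and 7.48% higher. The medians of the tested genes were -0.09 and -0.13, beside 0.00 over all genes. The ABBV-075 and ABBV-744 comparisons share the same 3 DMSO libraries. At 50 nM the count rested on single libraries. Without DMSO replicate 2 there was 1 call, without DMSO replicate 3 there were 3, and without ABBV-744 replicate 3 there were 4. The shares of all genes called in these smaller fits are not reported here. CPB2 alone of the 8 kept its call without each of the 6 libraries in turn, while F10 (0.49) and SERPINF2 (0.36) lost theirs without DMSO replicate 2 only. At 500 nM, PROS1 lost its call without DMSO replicate 2 (-0.39) or 3 (-0.39) or ABBV-744 replicate 2 (-0.34) or 3 (-0.41), and SERPINA1 without DMSO replicate 2 (0.28) or 3 (0.27) or ABBV-744 replicate 3 (0.25). With the GC correction, fitted in each library as described with the plot of corrected changes, 4 genes and 10.8% of all genes were called at 50 nM, and CPB2 and SERPIND1 were the only ones of the 8 that kept their call. At 500 nM the calls went the other way, to 9 genes (4 lower, 5 higher) and 17.9% of all genes. There the correction kept 5 of the 6, lost PROS1, and added F5, PROC, FGG and F12.

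IFNγ alone moved 5 of the 24 genes, beside 3.46% of all genes, 0.695% lower and 2.76% higher. The 3 fibrinogen chain genes fell, and A2M and GGCX rose. The median was 0.06, beside 0.00 over all genes. The count was 3 without IFNγ replicate 2, where FGA (-0.21) and FGB (-0.49) lost their calls. FGA also lost its call without DMSO replicate 2 (-0.24) or 3 (-0.21) or IFNγ replicate 3 (-0.23), and FGB without DMSO replicate 2 (-0.38) or IFNγ replicate 3 (-0.45).

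With IFNγ present, most of the tested genes moved with every inhibitor treatment. Compared with IFNγ alone, 15 of 23 fell and 2 rose with ABBV-075, where 56.6% of all genes were called, 28.4% lower and 28.2% higher. With 50 nM ABBV-744, 14 fell and 6 rose, where 51.7% of all genes were called, 24.3% lower and 27.4% higher. With 500 nM ABBV-744, 15 fell and 4 rose, where 45.7% of all genes were called, 22.8% lower and 22.9% higher. The medians were -0.69, -0.35 and -0.55, beside -0.00, -0.02 and -0.03 over all genes. These 3 comparisons share the same IFNγ libraries. SERPINC1, SERPIND1, F7 and CPB2 passed an absolute log2 fold change of 1.5 with ABBV-075 (6.17% of all genes), and SERPIND1 did so with 500 nM ABBV-744 (2.11% of all genes).

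**Figure D2:**
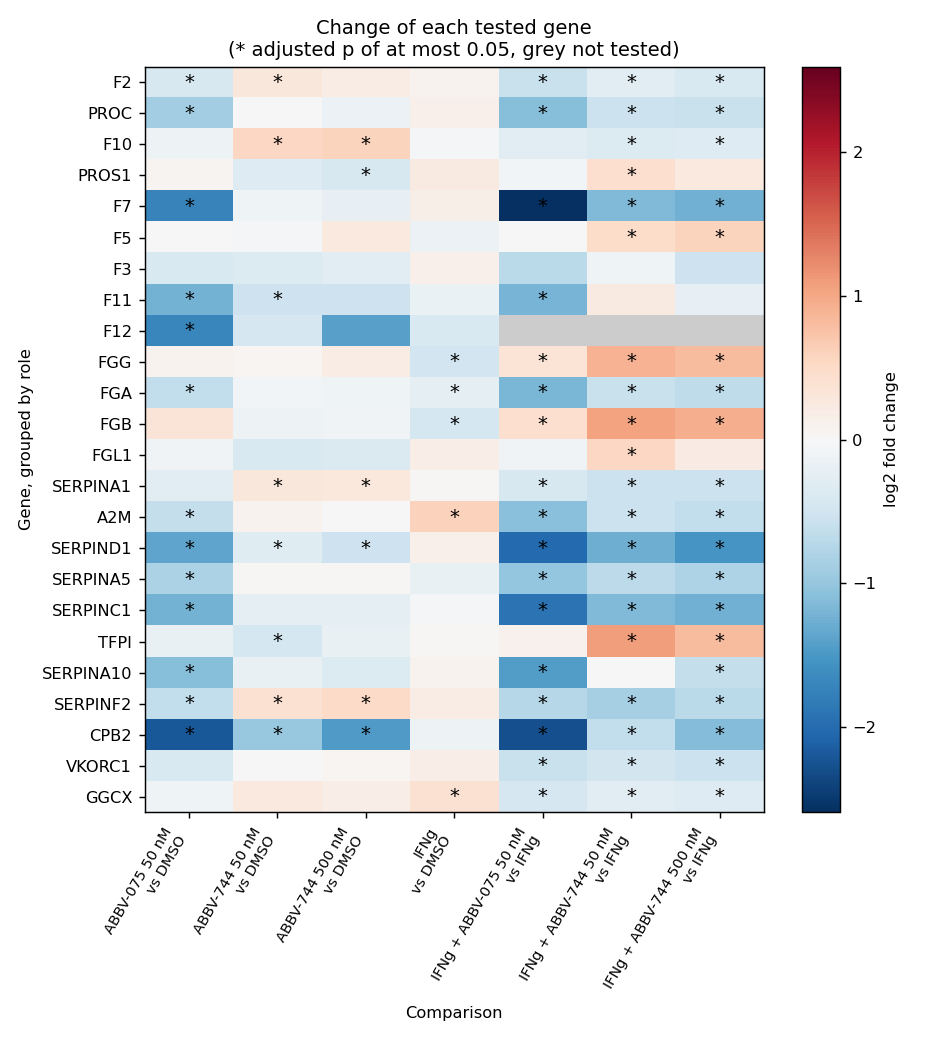
Log2 fold change (colour) of the 24 tested genes (rows, grouped by role) in the 7 comparisons with the own control (columns), with an asterisk at an adjusted p of at most 0.05. The ABBV-075 columns are mostly blue, with CPB2 at -2.21 and -2.29, whereas FGB and TFPI are red with ABBV-744 and IFNγ (1.04 and 1.09 at 50 nM).

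Among the vitamin K-dependent proteases and their kin, F7, the gene of factor VII that pairs with tissue factor, fell most. Its 3 DMSO libraries had 6.38, 6.91 and 9.31 CPM, and the ABBV-075 libraries had 1.92, 1.43 and 3.61 CPM. With ABBV-744 it had 8.02, 7.17 and 5.39 CPM at 50 nM and 6.67, 5.77 and 6.90 CPM at 500 nM, which overlapped with DMSO. The IFNγ libraries had 10.3, 9.99 and 4.72 CPM, and those of IFNγ with ABBV-075 had 0.994, 1.63 and 1.51 CPM. With IFNγ and ABBV-744 the values were 3.85, 3.39 and 3.87 CPM at 50 nM and 4.34, 3.25 and 3.07 CPM at 500 nM. All 3 inhibitor groups lay below the IFNγ libraries, of which 1 was low. The log2 fold change of F7 was -1.73 with ABBV-075 (SE 0.35, adjusted p = 0.00219) and -2.60 with ABBV-075 and IFNγ (SE 0.39, adjusted p = 4.95e-07). These changes rest on 4 to 39 counts per library.

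F10, the gene of factor X, starts 2.1 kb after F7 on chromosome 13 and went another way. It rose with ABBV-744 alone (log2 fold change 0.53 at 50 nM and 0.58 at 500 nM), fell with IFNγ and ABBV-744 (-0.35 and -0.34), and was not called with ABBV-075 (-0.14, 95% interval -0.57 to 0.29). The fall at 50 nM lost its call without IFNγ replicate 2 (-0.31) or 3 (-0.33) or the first replicate of the treated group (-0.31), and that at 500 nM without IFNγ replicate 2 (-0.31) or 3 (-0.32) or treated replicate 2 (-0.28) or 3 (-0.32). With that correction, both falls were near 0 (-0.01 and -0.09) and not called, the rise at 50 nM was not called (0.31), and the rise at 500 nM was (0.44). PROC, which encodes the anticoagulant protease protein C, fell with ABBV-075 from 106 ± 9.32 to 57.2 ± 12.2 CPM (log2 fold change -0.91, SE 0.16, adjusted p = 0.000986). With IFNγ it fell with all 3 inhibitor treatments, by 1.11, 0.55 and 0.57 on the log2 scale. F2 fell with ABBV-075 (-0.42), a call that was lost without DMSO replicate 1 (-0.38), DMSO replicate 2 (-0.40) or ABBV-075 replicate 2 (-0.41). PROS1, the gene of the protein C cofactor protein S, was not called with ABBV-075. It rose with IFNγ and 50 nM ABBV-744 (0.44), a direction that the GC correction turned (-0.27). PROZ, of the inhibitory cofactor protein Z, had 1 to 11 counts per library and was not tested in these comparisons.

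Of the cofactors, F5, the gene of factor V, rose with IFNγ and ABBV-744, by 0.48 at 50 nM and 0.57 at 500 nM, and was not called in the other 5 comparisons with an own control. The first rise was not called after GC correction (0.24), and the second was (0.45). With ABBV-075 its log2 fold change was -0.00 (95% interval -0.41 to 0.41). F3, which encodes tissue factor, had 9 to 30 counts per library and was not called in any of the 7 comparisons, with log2 fold changes between -0.69 and 0.13. F8, of the cofactor factor VIII, had at most 6 counts.

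The contact system starts clotting on charged surfaces in the test tube. F11, the gene of factor XI, fell with ABBV-075 from 21.8 ± 4.49 to 9.36 ± 1.69 CPM (log2 fold change -1.23, SE 0.22) and with ABBV-075 and IFNγ by 1.21 on the log2 scale. With ABBV-744 alone it was called at 50 nM (-0.54, adjusted p = 0.0412) and just missed a call at 500 nM (-0.53, adjusted p = 0.0523). After GC correction neither was called (-0.40 and -0.45). F12, the gene of factor XII, was near the floor. It had 2.93, 2.90 and 3.10 CPM in DMSO and 1.44, 0.286 and 0.902 CPM with ABBV-075, which rests on 11, 13 and 13 counts against 6, 1 and 3. The groups did not overlap, and the log2 fold change was -1.70 (SE 0.46, adjusted p = 0.012). Without ABBV-075 replicate 2 it was -1.31, and the call was lost. Its ABBV-744 libraries had 2.38, 1.56 and 2.54 CPM at 50 nM and 0.871, 2.24 and 0.287 CPM at 500 nM. F12 was called at neither dose (-0.44, adjusted p = 0.46, and -1.41, SE 0.50, adjusted p = 0.0523). The second, on 3, 7 and 1 counts, was called lower after GC correction (-1.53, adjusted p = 0.0267). The IFNγ libraries had 2.17, 2.35 and 2.22 CPM, and with ABBV-075 added they had 0.248, 1.09 and 0.904 CPM. Under IFNγ and ABBV-744 there were 0.961, 1.69 and 1.66 CPM at 50 nM and 0.668, 2.07 and 1.84 CPM at 500 nM, and F12 had too few counts for a test against IFNγ. KNG1, of kininogen, had 1 to 18 counts per library.

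The fibrinogen genes FGA, FGB and FGG lie within 1 cluster on chromosome 4, 10.3 kb and 13.4 kb apart. FGA had 429.6, 472 and 492 CPM in DMSO and 278, 317 and 311 CPM with ABBV-075. It had 449.9, 438 and 425 CPM with 50 nM and 420.5, 420.3 and 443 CPM with 500 nM ABBV-744, which overlapped with DMSO. The IFNγ libraries had 419.5, 368 and 381 CPM, and with IFNγ and ABBV-075 they had 160.5, 158 and 199.5 CPM. With IFNγ and ABBV-744 there were 281, 217 and 272 CPM at 50 nM and 295, 249 and 209 CPM at 500 nM. Every inhibitor group with IFNγ was below every IFNγ library. FGA fell with ABBV-075 (log2 fold change -0.64, SE 0.11, adjusted p = 0.000814) and with IFNγ and ABBV-075 (-1.19, SE 0.10), 50 nM ABBV-744 (-0.59, SE 0.09) or 500 nM ABBV-744 (-0.66, SE 0.10).

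FGG had 1261, 1386 and 1354 CPM in DMSO, and 1706, 1406 and 1222 CPM with ABBV-075, which overlapped. With ABBV-744 it had 1525, 1148 and 1435 CPM at 50 nM and 1631, 1332 and 1607 CPM at 500 nM. The IFNγ libraries were lower, at 1030.2, 954 and 841 CPM, a log2 fold change of -0.50 (SE 0.07, adjusted p = 1.18e-06). With IFNγ and ABBV-075 there were 1297, 1185 and 1169 CPM. Under IFNγ and ABBV-744 there were 1718, 1793 and 1763 CPM at 50 nM and 1845, 1716 and 1538 CPM at 500 nM, all above IFNγ alone. FGG thus rose with all 3 inhibitor treatments under IFNγ (0.35, 0.91 and 0.83). FGG has the lowest GC content of the tested genes, 37.2%, and the GC correction turned the first of these to -0.26 and left the other two at 0.09 and 0.16.

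FGB rose from 33.6 ± 1.18 CPM with IFNγ to 46.2 ± 3.65 CPM with ABBV-075 added, to 68.2 ± 6.35 CPM with 50 nM and to 66.1 ± 11.1 CPM with 500 nM ABBV-744 (SD, n = 3). With the GC correction, the rises with ABBV-744 were called at 0.60 and 0.63, and that with ABBV-075 was not called (0.16). The ratio of FGB to FGA, of 41.2% and 43.3% GC, was 0.0898 ± 0.01 in DMSO and 0.176 ± 0.0215 with ABBV-075, both as RPKM. It was 0.0775 ± 0.0072 with IFNγ, and 0.242 ± 0.0311, 0.241 ± 0.0419 and 0.236 ± 0.0181 with IFNγ and the 3 inhibitor treatments. The groups did not overlap in any of these 4 comparisons with their controls, and each gave p = 0.1 in a two-sided exact permutation test, the smallest p that 3 libraries against 3 allow. With ABBV-744 alone the ratio stayed near that of DMSO, at 0.0859 ± 0.0156 and 0.0905 ± 0.0162 (exact permutation p = 0.7 and 1). The ratio of FGG to FGB, by contrast, overlapped between IFNγ (34.1 ± 3.45) and each of its inhibitor groups (31.5 to 32.1). FGL1, a fibrinogen-like gene outside the clot, rose with IFNγ and 50 nM ABBV-744 only (0.54), a call that the GC correction ended.

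**Figure D3:**
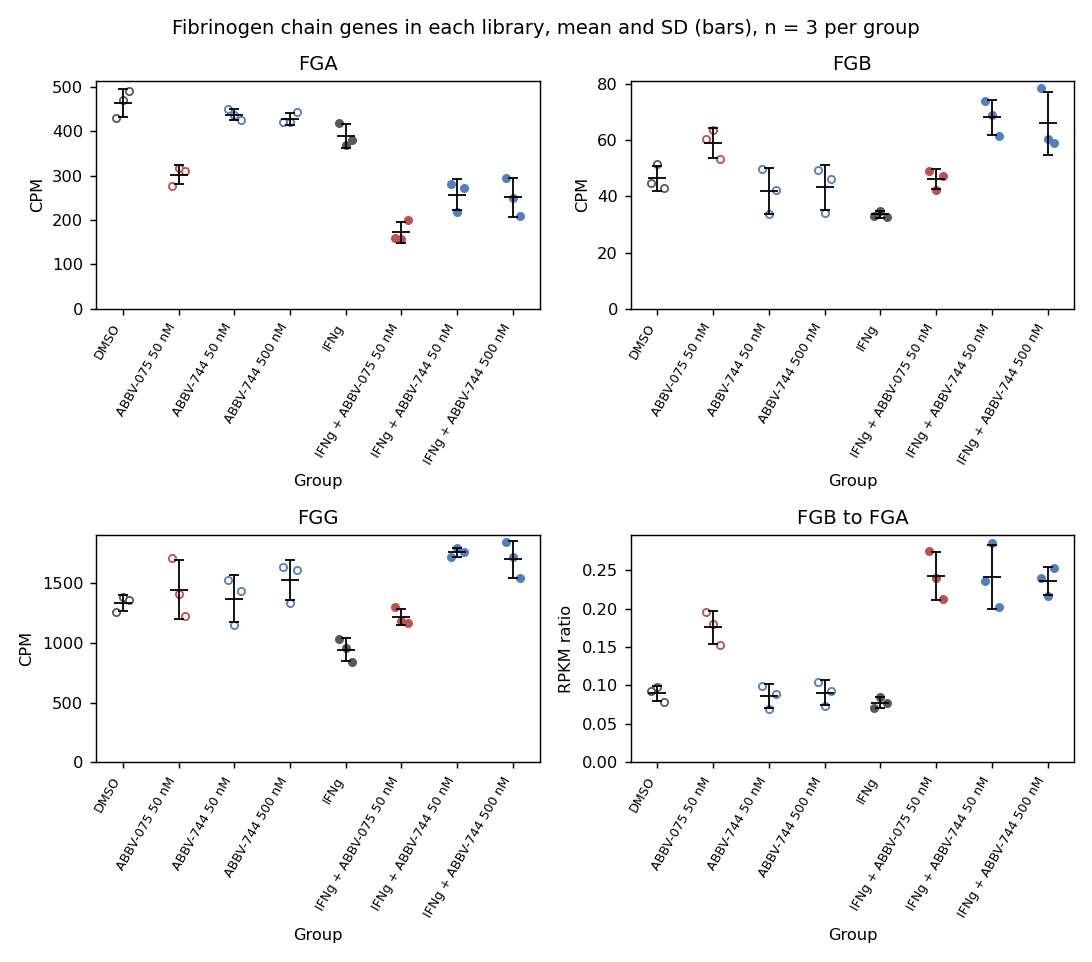
CPM of FGA, FGB and FGG and the RPKM ratio of FGB to FGA in each library (points), with the mean and SD (bars, n = 3), by group; filled points mark IFNγ. FGA is lower and the ratio higher in all 3 inhibitor groups with IFNγ (0.236 to 0.242) than with IFNγ alone (0.0775).

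Among the inhibitors of coagulation, SERPIND1 and SERPINC1 are given first. SERPIND1 had 300.0, 323 and 306 CPM in DMSO, and 102, 124 and 136 CPM with ABBV-075. It had 223, 272 and 245 CPM with 50 nM and 223, 191 and 223 CPM with 500 nM ABBV-744, all below DMSO. The IFNγ libraries had 343, 347 and 322 CPM, and 85.2, 82.1 and 85.9 CPM with ABBV-075 added. With IFNγ and ABBV-744 there were 145, 136 and 138 CPM at 50 nM and 128, 120.4 and 107 CPM at 500 nM. No inhibitor group overlapped with its control. SERPIND1 fell by 1.38 on the log2 scale with ABBV-075 (SE 0.13, adjusted p = 1.19e-05), by 0.31 and 0.54 with 50 nM and 500 nM ABBV-744, and by 2.01 (SE 0.09), 1.26 and 1.54 with the 3 treatments under IFNγ. The call of SERPIND1 with 50 nM ABBV-744 alone was lost without DMSO replicate 2 (-0.28) or 3 (-0.32) and without ABBV-744 replicate 1 (-0.23) or 3 (-0.31).

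SERPINC1, the gene of antithrombin, had 33.8, 38.8 and 45.1 CPM in DMSO and 14.9, 17.8 and 18.3 CPM with ABBV-075. With ABBV-744 it had 35.7, 33.4 and 28.5 CPM at 50 nM and 31.3, 34.9 and 33.9 CPM at 500 nM, overlapping with DMSO. The IFNγ libraries had 38.7, 42.6 and 32.2 CPM, and 10.2, 9.79 and 10.2 CPM with ABBV-075 added. With IFNγ and ABBV-744 they had 17.8, 17.5 and 15.2 CPM at 50 nM and 17.4, 14.8 and 16.3 CPM at 500 nM. SERPINC1 fell by 1.23 (SE 0.17) with ABBV-075, and by 1.92 (SE 0.18), 1.15 (SE 0.15) and 1.25 (SE 0.16) on the log2 scale with the 3 treatments under IFNγ. With ABBV-744 alone it was not called at 50 nM (-0.25, 95% interval -0.55 to 0.04) or 500 nM (-0.23, 95% interval -0.51 to 0.05).

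A2M, a broad protease inhibitor, was the member that IFNγ raised most. It had 2774, 2917 and 2825 CPM in DMSO and 4238, 4309 and 4221 CPM with IFNγ (log2 fold change 0.59, SE 0.06, adjusted p = 3.89e-10). ABBV-075 lowered it to 1636, 1823 and 2130.4 CPM without and 2049, 1920.4 and 2118 CPM with IFNγ. With ABBV-744 alone it had 2961, 3049 and 2900.3 CPM at 50 nM and 2742, 2842 and 2880.4 CPM at 500 nM, overlapping with DMSO. Under IFNγ and ABBV-744 there were 3009, 2782 and 2859 CPM and 3015, 2820.4 and 2547 CPM, all below IFNγ alone. The log2 fold changes were -0.63 (SE 0.12) with ABBV-075, and -1.08, -0.55 and -0.63 with the 3 treatments under IFNγ.

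SERPINA1 was the most abundant of the genes. It had 5507, 5341 and 5247 CPM in DMSO, 4126, 4163 and 5055 CPM with ABBV-075, and 5551, 5430.2 and 5383 CPM with IFNγ. ABBV-744 raised it to 6354, 6834 and 6383 CPM at 50 nM and 5937, 6797 and 6729.6 CPM at 500 nM. With IFNγ it was below the control in all inhibitor groups, at 4081, 4067 and 4299.7 CPM with ABBV-075, 3759, 3803 and 3519 CPM with 50 nM and 3668, 3811 and 3769 CPM with 500 nM ABBV-744. The log2 fold changes with ABBV-744 were thus positive without IFNγ (0.30 and 0.28) and negative with it (-0.55 and -0.56), and that with ABBV-075 was -0.29 (adjusted p = 0.0847) without and -0.41 with IFNγ. With the GC correction, the rise at 50 nM (0.14) and the fall with IFNγ and ABBV-075 (-0.14) lost their calls.

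SERPINA5, of the protein C inhibitor, and SERPINA10, of the protein Z-dependent inhibitor, lie on either side of SERPINA1 on chromosome 14, 170.7 kb and 83.5 kb away. Both fell with ABBV-075, by 0.83 and 1.11 on the log2 scale, and with ABBV-075 and IFNγ, by 1.01 and 1.44. SERPINA5 also fell with IFNγ and ABBV-744 (-0.68 and -0.81), whereas SERPINA10 did so at 500 nM (-0.62) and was not called at 50 nM (0.01). After GC correction it was called lower at both doses (-0.41 at 50 nM and -0.91 at 500 nM). TFPI, which blocks the tissue factor complex, was the 1 gene of the 7 inhibitors that rose with IFNγ and ABBV-744. It went from 90.1 ± 15.8 CPM with IFNγ to 190.5 ± 9.98 CPM with 50 nM and 163 ± 30.2 CPM with 500 nM ABBV-744 (log2 fold changes 1.09, SE 0.10, and 0.83, SE 0.12). With ABBV-744 alone it fell at 50 nM (-0.46), which the GC correction took to -0.25 and out of the calls. It was not called with ABBV-075, without or with IFNγ (-0.19 and 0.12), although the GC-corrected value without IFNγ was called lower (-0.39).

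**Figure D4:**
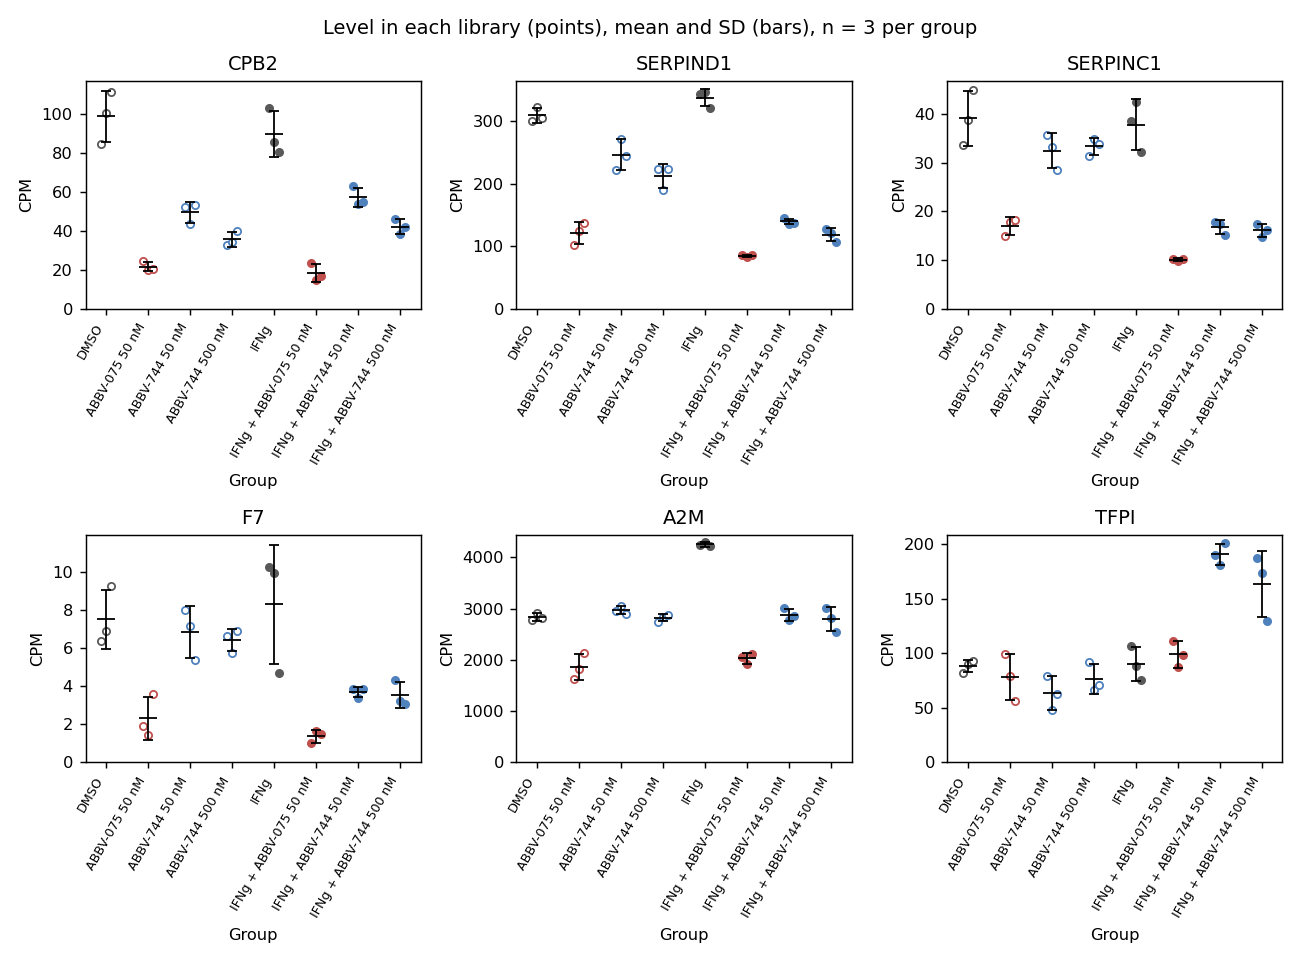
CPM of CPB2, SERPIND1, SERPINC1, F7, A2M and TFPI in each library (points) with the mean and SD (bars, n = 3), by group; filled points mark IFNγ. CPB2 is lower in every inhibitor group than in its control, A2M is highest with IFNγ alone, and TFPI is highest with IFNγ and 50 nM ABBV-744 (190.5 CPM).

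In fibrinolysis, CPB2 encodes a carboxypeptidase that protects fibrin from breakdown by plasmin, and it fell in all 6 comparisons of an inhibitor with its control. It had 84.6, 100.4 and 111 CPM in DMSO and 24.3, 20.1 and 20.4 CPM with ABBV-075. With ABBV-744 it had 52.0, 43.4 and 52.9 CPM at 50 nM and 32.5, 34.3 and 39.7 CPM at 500 nM. The IFNγ libraries had 103, 85.8 and 80.6 CPM, and 23.6, 14.7 and 16.9 CPM with ABBV-075 added. With IFNγ and ABBV-744 there were 62.7, 53.9 and 54.8 CPM at 50 nM and 46.1, 38.2 and 42.1 CPM at 500 nM. No inhibitor library reached the lowest library of its control. The log2 fold changes were -2.21 with ABBV-075 (SE 0.16, adjusted p = 1.6e-06), -0.98 (SE 0.12) and -1.47 (SE 0.13) with 50 nM and 500 nM ABBV-744, and -2.29 (SE 0.15), -0.64 (SE 0.11) and -1.12 (SE 0.12) with the 3 treatments under IFNγ. CPB2 has 38.1% GC, and the corrected value with IFNγ and 50 nM ABBV-744 was larger, at -1.38.

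SERPINF2, of the plasmin inhibitor alpha-2-antiplasmin, fell with ABBV-075 (-0.63, SE 0.13) and with all 3 treatments under IFNγ (-0.73, -0.86 and -0.70), and rose with ABBV-744 alone (0.40 and 0.50). The rise at 50 nM was lost with the GC correction (0.16), and that at 500 nM was kept (0.36). PLAU, the gene of urokinase, its receptor gene PLAUR and PLAT, of tissue plasminogen activator, had at most 12, 19 and 8 counts per library. Of the genes that add the vitamin K-dependent modification, GGCX, the carboxylase, rose with IFNγ (0.40, SE 0.08, adjusted p = 0.00114). It fell with the inhibitors under IFNγ (-0.43, -0.28 and -0.33, the last without a call once replicate 2 of that group was left out, at -0.27), as did VKORC1, the reductase that warfarin blocks (-0.58, -0.48 and -0.55). The fall of VKORC1 with IFNγ and 50 nM ABBV-744 was not called after GC correction (-0.15).

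At the matched dose of 50 nM, ABBV-075 and ABBV-744 were compared directly, without and with IFNγ. The treatment time of ABBV-744 is not given, so that inhibitor and time cannot be told apart here. Without IFNγ, 15 of 23 genes were lower with ABBV-075 and 1, FGB, was higher, where 40.8% of all genes were called, 19.4% lower and 21.4% higher. The differences of F7 (log2 -1.59, SE 0.36), CPB2 (-1.20, SE 0.16), SERPIND1 (-1.04, SE 0.14) and SERPINF2 (-1.0, SE 0.13) were of at least 1 log2 unit, and that of F7 was past 1.5 as well, as was that of 3.83% of all genes. With IFNγ, 16 were lower and 1, SERPINA1, was higher, where 33.7% of all genes were called, 17% lower and 16.7% higher. SERPINA1 (0.22) lost this call without replicate 2 (0.23) or 3 (0.18) of IFNγ with ABBV-075, or replicate 1 (0.22) or 3 (0.18) of IFNγ with ABBV-744. With IFNγ, CPB2 (-1.58, SE 0.14), F7 (-1.38, SE 0.43), SERPINA10 (-1.38, SE 0.18), F11 (-1.37, SE 0.20) and TFPI (-0.90, SE 0.09) were lower, the first 4 by more than 1 log2 unit, and CPB2 by more than 1.5, a size that 1.49% of all genes passed in either direction. The call of F7 was lost without IFNγ and ABBV-075 replicate 1 (-1.15). SERPINF2 was not called with IFNγ (0.20, 95% interval 0.01 to 0.40), nor was F10 (0.15, 95% interval -0.15 to 0.44). FGB was higher with ABBV-075 without IFNγ (0.48, adjusted p = 0.042) and lower with IFNγ (-0.52, SE 0.11). After GC correction the first difference was 0.05 and not called, and the second was -0.42 and called. The first of these calls was also lost without ABBV-075 replicate 1 (0.47) or 2 (0.45) or ABBV-744 replicate 2 (0.34) or 3 (0.49). Of the 16 calls without IFNγ, the GC correction kept 14, lost those of F10 (-0.29) and FGB, and added FGG (34.3% of all genes called). Of the 17 with IFNγ it kept 16, lost that of SERPINA1, and added F2 and VKORC1 (34.6% of all genes called).

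Between 500 nM and 50 nM ABBV-744, 0 of 23 genes were called, where 0.0274% of all genes were. CPB2 was the 1 gene with an unadjusted p under 0.05 (log2 difference -0.49, 95% interval -0.79 to -0.18). It was called lower with the GC correction (-0.63, adjusted p = 0.047), with a replicate block and with both, whereas DESeq2 called 0 genes. With IFNγ, 0 of 23 were called, where 1.7% of all genes were, 7 had an unadjusted p under 0.05, and DESeq2 called 0. The largest of these were SERPINA10 (-0.56, adjusted p = 0.0634) and CPB2 (-0.42, 95% interval -0.65 to -0.18, adjusted p = 0.051), and both were called lower with library size only, without a filter on low counts and with the replicate block. The treatment times of the ABBV-744 groups are not given, so that dose and time cannot be told apart.

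Whether an inhibitor acted differently with IFNγ was tested as an interaction over 4 groups, in which a positive value means a higher log2 fold change with IFNγ than without. For ABBV-075, 0 of 24 genes were called, where 0.0347% of all genes were, 5 had an unadjusted p under 0.05, and DESeq2 called 0. SERPIND1 had an interaction of -0.65 (95% interval -0.96 to -0.34, adjusted p = 0.208), and was called lower without a filter on low counts and with the GC correction (-0.51, adjusted p = 0.0496). For 50 nM ABBV-744, 13 of 24 were lower and 7 higher, where 51.6% of all genes were called, 26.5% lower and 25% higher, and the median of all genes was -0.14. TFPI (1.52, SE 0.18), FGB (1.13, SE 0.18), SERPINF2 (-1.28, SE 0.13), F7 (-1.06, SE 0.42), SERPIND1 (-0.98, SE 0.12) and SERPINC1 (-0.93, SE 0.21) differed most, and the interaction of TFPI was past 1.5, a size that 6.44% of all genes passed in either direction. The call of F7 was kept only without DMSO replicate 3, ABBV-744 replicate 3 or IFNγ replicate 3, and was lost without any 1 of the other 9 libraries (-1.08 to -0.87). For 500 nM, 12 of 25 were lower and 5 higher, where 33.5% of all genes were called, 15% lower and 18.5% higher.

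The GC content of genes moved with the groups, with both inhibitors, and corrected values are printed here for some of the results only. Genes of low GC content (at most 41.4%) had a median log2 fold change of 0.72 with IFNγ and 50 nM ABBV-744 against IFNγ, and genes of high GC content (at least 55.9%) had -0.33. Low-GC genes were lower without IFNγ at that dose (-0.30, against 0.24 for high-GC genes). With ABBV-075 the medians were 0.39 and -0.14, and with ABBV-075 and IFNγ against IFNγ they were 0.54 and -0.17. For ABBV-075 against ABBV-744 at 50 nM they were 0.71 and -0.36 without IFNγ, and -0.13 and 0.25 with it. Among the genes described here, PROS1, FGB, FGG, CPB2, F9 and F13B are low-GC genes, and F2, F7, F10, PROC, F12, SERPINF2 and VKORC1 are high-GC genes. In single libraries, the median deviation of low-GC genes from their mean over the 24 libraries, minus that of high-GC genes, lay between -0.19 and 0.71 with ABBV-075, where DMSO had -0.32 to -0.08. It lay between -1.05 and -0.50 with 50 nM ABBV-744, and between 0.63 and 0.70 with IFNγ and 50 nM ABBV-744. Reads outside genes made up 14.8% to 25.3% of the reads per library and reached 25.3% in ABBV-075 replicate 1, which also had the highest GC value. The part of GC content or of these reads in the results was not tested.

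A correction for GC content was fitted in each library as an alternative. With ABBV-075 the 13 genes that fell kept their calls, and 17 were lower and 0 higher (23.6% of all genes lower, 21.6% higher), with FGG, PROS1, TFPI and VKORC1 added. With IFNγ and ABBV-075, 14 of the 15 that fell and neither of the 2 that rose kept their calls (29.2% of all genes lower, 26.7% higher). With IFNγ and 50 nM ABBV-744, 11 of the 14 that fell and 2 of the 6 that rose, FGB and TFPI, did so. Over all genes, 18.2% were lower and 16.3% higher there, in place of 24.3% and 27.4%. F5, F2, F10, VKORC1, PROS1, FGG and FGL1 did not. In the interaction of 50 nM ABBV-744, where 20.4% of all genes were called in place of 51.6%, 10 of 20 calls were kept in direction, among them TFPI (0.95), FGB (0.51), SERPINF2 (-0.70), SERPIND1 (-0.70), SERPINC1 (-0.69), FGA (-0.88) and A2M (-0.41), whereas F7 (-0.50) was not called.

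**Figure D5:**
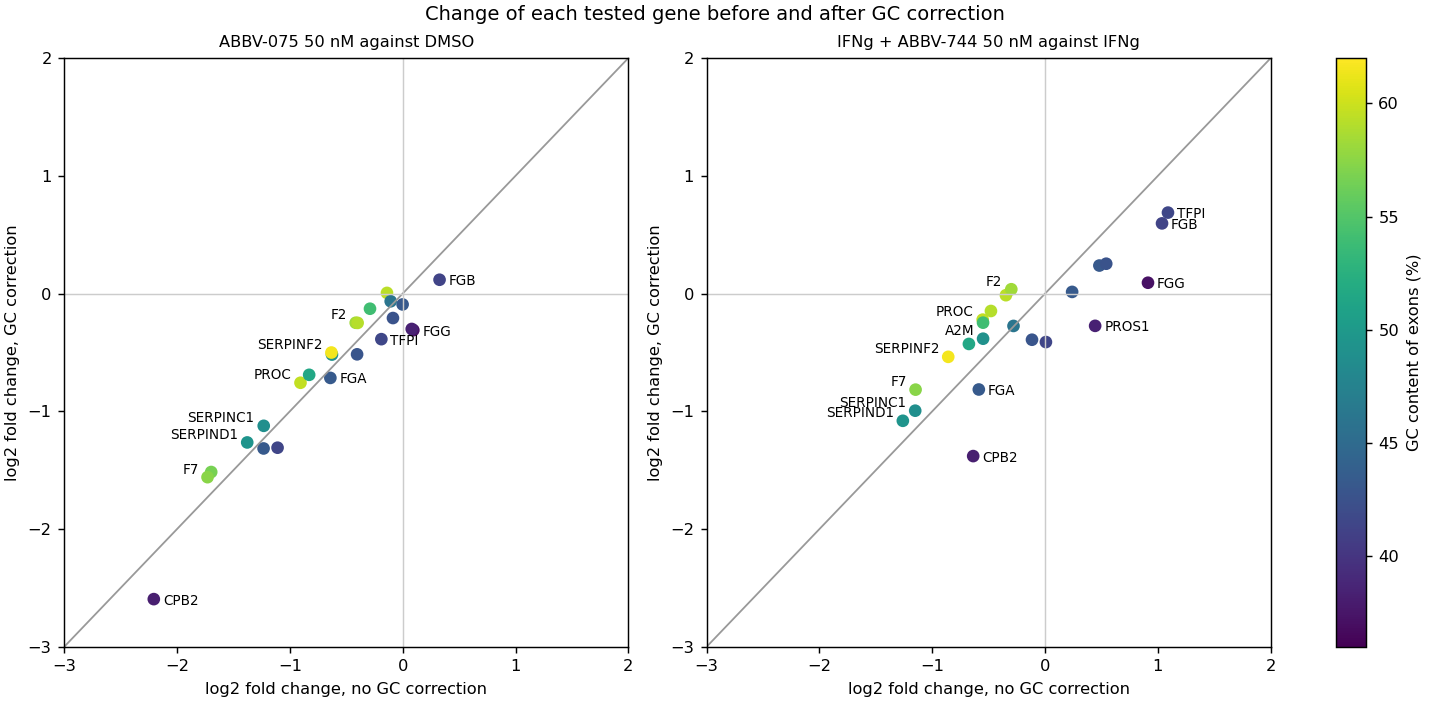
Log2 fold change of each tested gene without (x axis) and with (y axis) the GC correction, for ABBV-075 against DMSO and for IFNγ with 50 nM ABBV-744 against IFNγ; colour is the GC content of the exons in percent, 13 genes or fewer are labelled per panel, and the diagonal marks equal values. FGG moves from 0.91 to 0.09 and PROS1 from 0.44 to -0.27 in the second panel, whereas SERPIND1 (-1.26 and -1.08) stays close to the diagonal.

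Another 29 genes of haemostasis, among them receptors, regulators and secretion factors, were counted in the same way. With ABBV-075, 9 of 16 tested fell and 0 rose (0 were higher at an unadjusted p under 0.05 in the edgeR test), beside 19.6% of all genes lower and 19.8% higher. C4BPB, whose protein carries protein S in plasma, fell from 32.8 ± 2.37 to 3.67 ± 0.467 CPM (log2 fold change -3.18, SE 0.21), and F2RL1, of a protease-activated receptor, fell by 1.60. With IFNγ, 1 of 18 fell and 2 rose, beside 0.695% and 2.76% of all genes. Of these, SERPING1, the C1 inhibitor that also restrains factor XII, went from 0.961 ± 0.207 to 9.09 ± 3.99 CPM (log2 fold change 3.20, SE 0.41). With IFNγ and ABBV-075, 12 of 17 fell and 1 rose, beside 28.4% and 28.2% of all genes, and C4BPB (-3.36) and C4BPA (-1.56) were among those that fell. With ABBV-744, 6 of 16 fell and 1 rose at 50 nM (10.1% and 8.81% of all genes), and 7 fell and 1 rose at 500 nM (7.8% and 7.48%). With IFNγ, 8 of 17 fell and 2 rose at 50 nM (24.3% and 27.4% of all genes), and 10 fell and 2 rose at 500 nM (22.8% and 22.9%).

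Of 12 liver transcription factors, all tested, 5 fell and 0 rose with ABBV-075. This is 41.7% lower, where 39.3% of all genes were called, 19.6% lower and 19.8% higher. With ABBV-075 and IFNγ, 6 fell (50.0%) and 1 rose, where 56.6% of all genes were called, 28.4% lower and 28.2% higher. NR1H4, of the bile acid receptor FXR, fell from 54.1 ± 5.55 to 3.79 ± 1.26 CPM (log2 fold change -3.83, SE 0.22). With 50 nM ABBV-744, 3 fell and 3 rose without IFNγ (50% beside 18.9% of all genes), and 2 fell and 2 rose with it (33.3% beside 51.7%). With 500 nM, 1 fell and 2 rose without IFNγ (25% beside 15.3%), and 3 fell and 0 rose with it (25% beside 45.7%, of which 22.8% lower and 22.9% higher).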

How the data were processed

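RNA (rRNA depleted, directional libraries) of 24 HepG2 samples was sequenced, and the authors deposited raw read counts per gene symbol, made with CASAVA 1.8.2, Trimmomatic 0.33 and STAR 2.7.1 on hg38 per the submitters' notes. The annotation behind the counts is not given in the sources used here. Multimapping reads (56.0% to 69.4% of reads) are left out of the counts, and reads outside genes took 14.8% to 25.3%. Sense-strand counts (98.3% to 98.5% of the stranded ones) entered the tests.

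Groups came from the sample labels. Each comparison was fitted on its own groups with edgeR 4.0.16 in R 4.3.3 (filterByExpr, TMM, glmQLFit, glmQLFTest), the interactions on 4 groups, with Benjamini-Hochberg adjustment over all genes tested. CPM used TMM factors over the 24 libraries. RPKM used the joint length of all exons of a gene's transcripts in GENCODE (GRCh38), which need not be the annotation behind the counts. Such a length can exceed that of the transcript in the cells and then makes the RPKM too low. It was 13.3 kb for GGCX and 11.7 kb for TFPI. Ratios were compared by exact permutation over libraries. Intervals are at 95%. The script was tested on simulated counts. The genes, lists and tests were chosen with earlier results of these data known. All 35 genes are named, with the values of every library for those past both thresholds in a comparison with the control, and for the most abundant.

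Alternatives were DESeq2 1.42.0, other scaling, no filter or at least 10 counts, all 24 libraries in 1 fit, unstranded counts, a replicate block, a GC correction (lowess of log2 CPM deviations on GC content, span 0.3) and leaving out each library. Promoters and motifs came from RefSeq (GRCh38.p14). FGL1, SERPINC1, A2M, PLAT and SERPINF2 had no entry in the promoter table. Some further genes of the lists are counted but not reported here by name.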

Additional observations from a re-analysis of the deposited data

Results flagged for a closer look

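The response to 50 nM ABBV-744 differed with and without IFNγ in 20 of the tested genes, by the interaction term of edgeR's test over 12 libraries. Over all genes tested, 51.6% were called. Values are log2 fold changes with IFNγ minus those without, followed by the value after the GC correction. Higher with IFNγ were TFPI (1.52, corrected 0.95), FGB (1.13, corrected 0.51), FGL1 (0.91, corrected 0.49), FGG (0.83, corrected -0.30), F11 (0.75, corrected 0.42), PROS1 (0.74, corrected -0.25) and F5 (0.47, corrected 0.12). Lower among the inhibitors and in fibrinolysis were SERPINF2 (-1.28, corrected -0.70), SERPIND1 (-0.98, corrected -0.70), SERPINC1 (-0.93, corrected -0.69), SERPINA1 (-0.88, corrected -0.39), SERPINA5 (-0.74, corrected -0.35) and A2M (-0.66, corrected -0.41). Lower among the proteases, FGA and the vitamin K cycle were F7 (-1.06, corrected -0.50), F10 (-0.91, corrected -0.32), F2 (-0.62, corrected -0.05), PROC (-0.58, corrected -0.00), GGCX (-0.56, corrected -0.55), FGA (-0.55, corrected -0.88) and VKORC1 (-0.51, corrected 0.07). The median over all genes was -0.14. With the correction, 10 of the 20 calls were kept in direction, where 20.4% of all genes were called. Those of F5, F2, F7, F10, VKORC1, PROC, PROS1, FGG, F11 and FGL1 were not kept. Several of the 20 calls rested on single libraries. That of F7 was lost without any 1 of 9 of the 12 libraries (-1.08 to -0.87), that of F5 without any 1 of 8 (0.34 to 0.52; DMSO replicates 2 and 3, IFNγ replicates 1 and 3, and replicates 1 and 2 of each ABBV-744 group), and that of F11 without DMSO replicate 2 (0.56), IFNγ replicate 1 (0.58), ABBV-744 replicate 3 (0.71), or replicate 1 (0.69) or 3 (0.62) of IFNγ with ABBV-744.

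At 500 nM the interaction was called in 17 genes, where 33.5% of all genes were called. The correction kept 11 of them in direction, where 16.8% of all genes were called, and not F2, VKORC1, PROC, PROS1, FGG and FGL1. Higher with IFNγ were FGB (1.06, corrected 0.61), TFPI (1.05, corrected 0.64), PROS1 (0.70, corrected -0.05), FGG (0.65, corrected -0.21) and FGL1 (0.60, corrected 0.32). Lower were SERPINF2 (-1.18, corrected -0.84), SERPINC1 (-1.0, corrected -0.77), SERPIND1 (-0.98, corrected -0.73), F10 (-0.90, corrected -0.53), SERPINA1 (-0.82, corrected -0.46), SERPINA5 (-0.82, corrected -0.50), A2M (-0.61, corrected -0.37), VKORC1 (-0.57, corrected -0.21), F2 (-0.56, corrected -0.18), FGA (-0.53, corrected -0.74), GGCX (-0.48, corrected -0.41) and PROC (-0.41, corrected -0.05). The call of PROC was lost without any 1 of 8 of the 12 libraries (-0.41 to -0.31), namely replicates 2 and 3 of DMSO, of ABBV-744 and of IFNγ, and replicates 1 and 2 of IFNγ with ABBV-744. That of FGL1 was lost without any 1 of the same libraries except IFNγ replicate 2 (0.50 to 0.58). The 2 interactions share the DMSO and IFNγ libraries. The part of GC content in these differences was not tested further.

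Reads on the strand opposite to the gene, which no comparison used, exceeded the DMSO libraries for SERPINA10 and TFPI. SERPINA10 had at least 5 such reads in each library with ABBV-075 and at least 4 with IFNγ and ABBV-075, where DMSO had 2. TFPI had at least 5 such reads in each library with ABBV-075, with IFNγ and ABBV-075, and with IFNγ and 50 nM ABBV-744, where DMSO had at most 3. With IFNγ alone there were 3 to 4 such reads for SERPINA10 and 3 to 6 for TFPI. These overlapped with the inhibitor groups under IFNγ, at 4 to 6 for SERPINA10 and 5 to 11 and 5 to 9 for TFPI. These are small counts of reads without correction for depth, and how often such differences occur over all genes was not counted.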

How the results depend on the processing

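Of the 158 called values of single genes, 142 kept their direction and call with DESeq2, 156 with RLE factors, 149 with library size only, 155 without a filter, 146 with all 24 libraries in 1 fit, 154 with unstranded counts and 120 with the GC correction, which took 30 out of the calls and turned 8. With the GC correction, without and with the replicate block, FGG reached -0.26 and -0.26 (IFNγ and ABBV-075), F2 0.037 and 0.036 and PROS1 -0.27 and -0.27 (IFNγ and 50 nM ABBV-744). The interactions of 50 nM ABBV-744 reached 0.065 and 0.069 (VKORC1), -0.25 and -0.25 (PROS1) and -0.30 and -0.30 (FGG), and those of 500 nM -0.047 and -0.056 (PROS1) and -0.21 and -0.21 (FGG).

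Counts of called genes moved by over 1.5 times as follows. With 50 nM ABBV-744 the 8 became 4 with the GC correction (all genes, 18.9% to 10.8%) and 5 with all 24 libraries (12.8% of all genes). With IFNγ the 5 became 3 with DESeq2 and 3 with all 24 libraries (all genes, 3.46% to 1.67% and 2.27%). Between the ABBV-744 doses the 0 became 1 (CPB2) with the GC correction, and with IFNγ 2 (CPB2, SERPINA10) with library size only or without a filter. The 0 of the ABBV-075 interaction became 1 (SERPIND1) without a filter or with the GC correction, and the 20 of the 50 nM ABBV-744 interaction became 12 with the GC correction (all genes, 51.6% to 20.4%). Leaving out 1 library at a time gave 12 to 19 calls with ABBV-075, 1 to 9 and 4 to 8 with 50 nM and 500 nM ABBV-744, 3 to 6 with IFNγ, 17 to 18, 19 to 20 and 17 to 19 with the 3 treatments under IFNγ, and 11 to 19 and 14 to 17 between the inhibitors. It gave 0 to 0 and 0 to 2 between doses, and 0 to 3 (3 without ABBV-075 replicate 1), 17 to 20 and 15 to 18 for the interactions. The shares of all genes in these smaller fits are not reported here, so that a loss of calls cannot be read as particular to these genes.

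Whether replicate numbers pair the libraries was not settled. In no comparison did all 3 same-numbered pairs correlate by over 0.1, but some pairs did. The correlations were 0.25, 0.33 and 0.06 between the ABBV-744 doses without IFNγ, and 0.17, 0.01 and 0.16 for IFNγ and ABBV-075 against IFNγ. They were -0.11, -0.11 and 0.00 for 50 nM ABBV-744 against DMSO. The replicate block gave 4 calls for 50 nM ABBV-744 (13.7% of all genes), 3 for IFNγ (2.59%), and 1 and 2 for the doses without and with IFNγ (2.92% and 2.42%). Without the block, 0.0274% of all genes were called between the doses without IFNγ. For IFNγ and ABBV-075 against IFNγ the block took the share of all genes from 56.6% to 61.8%. With the GC correction the block gave 4 (50 nM ABBV-744), 1 (doses), 1 (FGA, ABBV-075 interaction) and 12 (50 nM ABBV-744 interaction). The shares of all genes there were 8.13%, 1.32%, 0.234% and 20.1%.

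F7, F12 and F3, with at most 39 counts per library, and the 11 untested genes are limited by depth, and the causes of the moves above were not tested.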
